A study of Mus musculus with 3 samples.

Results

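The 32 genes described here encode components, regulators and receptors of the complement system. They were chosen by symbol, with earlier results of these data known, from the 31053 genes counted in each library, and all 32 had a row. They comprised the C1q chains C1qa, C1qb and C1qc, the lectins Mbl1 and Mbl2, the serine proteases C1ra, C1s1, Masp1, Masp2, C2, Cfb and Cfd, and the central components C3, C4b and Hc (complement C5). The terminal components C6, C8a, C8b, C8g and C9, the soluble regulators Cfi, Cfp, Serping1 and C4bp, the membrane regulators Cd55 and Cd59a and the receptors C3ar1, C5ar1, Cr2, Cd93, Vsig4 and Itgax completed the list. Non-parenchymal cells were taken from perfused livers of female Balb/c mice and measured by droplet 3′ RNA sequencing in 3 libraries. The control library came from mice given PBS (labelled 8 weeks of age), and the others from mice at day 4 (8 weeks) or day 21 (11 weeks) after orthotopic injection of 4T1 cells, a mouse mammary carcinoma line. No genetic change is named for any group, and the labels state neither how many mice went into a library nor on which day the control livers were taken. Each group was therefore 1 library, every difference below compares libraries without a replicate check, and the intervals given (95%, exact) cover counting error only.

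Complement is a cascade of plasma and membrane proteins that marks particles and cells for uptake or lysis. C1q with the proteases C1r and C1s starts the classical pathway, mannose-binding lectins with the MASP proteases start the lectin pathway, and factors B and D with properdin drive the alternative pathway. The pathways meet at C3, after which C5 to C9 form a pore. Hepatocytes are the main source of most plasma components, whereas macrophages are a main source of C1q, and the resident liver macrophages (Kupffer cells) clear C3-coated particles through the receptor encoded by Vsig4.

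The libraries held 27191082, 34833820 and 51913215 UMIs (unique molecular identifiers, 1 per captured transcript) in 6489, 9175 and 12338 barcodes for control, day 4 and day 21. After filters, 4694, 5410 and 9938 cells remained, and between 5 and 19 of the retained barcodes were shared by any pair of libraries. Cells were grouped without the complement genes, and groups were named from marker lists that hold none of them. Kupffer-like cells numbered 470, 920 and 668 in control, day 4 and day 21, endothelial-like cells 1400, 1546 and 1074, stellate-like cells 519, 662 and 341, and hepatocyte-like cells, which the preparation was meant to deplete, 82, 211 and 186. Neutrophil-like cells numbered 54, 189 and 2483, and the day 21 library held a further 725 neutrophil precursor-like cells against 7 and 6. Levels are given as CPM, the UMIs of a gene per 1000000 UMIs of all cells of a class in a library, which need no correction for transcript length. The day 21 library stood apart in 2 ways that touch all results. Median depth in Kupffer-like cells was 7873 and 7551 UMIs in control and day 4 and 2026.5 at day 21, and the 12 neutrophil markers together reached 6442 CPM in Kupffer-like cells at day 21 against 56.9 in control and 64.5 at day 4, with 5223 in stellate-like, 6863 in hepatocyte-like and 3017 in endothelial-like cells. In 1 alternative, cells were thinned to 1000 UMIs and cells with fewer were left out. Those left out were 25 of 82 hepatocyte-like cells in control and 98 of 186 at day 21. In Kupffer-like cells they were 37 of 470 and 125 of 668. The setting thus changed the cells as well as the depth. Under it, 50 of the 108 ratios of described genes that could be formed lay outside their counting interval. A further change was that 1 ratio that had been at least 2-fold changed direction. The part of the neutrophil markers in the differences below was not tested. A gene is described in a class where its level reached at least 25% of that in its highest class, for a ratio in either of the 2 libraries compared, and a ratio is given where 2 libraries together held at least 20 of its UMIs. A gene low in 1 library can thus pass either limit through the other, which fixes part of its ratio.

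Several of the genes are neighbours in the mouse genome (GRCm38). On chromosome 4, C1qb, C1qc and C1qa lie in a row with gaps of 3.62 and 2.85 kb, and C8b and C8a are 11.1 kb apart, with no other coding gene between them. C1ra and C1s1 on chromosome 6 are 6.90 kb apart, and Cfb and C2 on chromosome 17 are separated by 85 bases. RefSeq promoters (GRCm38.p6) were found for 24 of the 32 genes. The upstream sequences of 6 genes are shown because their results below either parted from those of a neighbour (C8a and C8b, C1qb and C1qc) or were among the largest in hepatocyte-like (C8a, C9) and Kupffer-like (C6) cells. They are C8a at chr4:104876399-104876648 (minus strand), C8b at chr4:104766067-104766316 (plus strand), C9 at chr15:6445096-6445326 (plus strand), C6 at chr15:4726960-4727174 (plus strand), C1qb at chr4:136886201-136886450 (minus strand) and C1qc at chr4:136893066-136893164 (minus strand). Each runs 5′ to 3′ on the strand of its gene and ends before the annotated start, and matches to the motifs named below are in capitals.
C8a: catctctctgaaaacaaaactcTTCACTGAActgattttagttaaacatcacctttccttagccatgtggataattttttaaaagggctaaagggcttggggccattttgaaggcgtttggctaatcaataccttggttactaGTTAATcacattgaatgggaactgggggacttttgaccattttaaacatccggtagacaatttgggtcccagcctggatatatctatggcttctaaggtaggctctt
C8b: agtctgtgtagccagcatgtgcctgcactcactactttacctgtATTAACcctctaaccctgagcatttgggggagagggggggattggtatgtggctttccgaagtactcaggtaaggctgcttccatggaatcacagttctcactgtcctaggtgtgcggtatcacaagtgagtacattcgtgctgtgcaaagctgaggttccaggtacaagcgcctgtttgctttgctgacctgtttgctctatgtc
C9: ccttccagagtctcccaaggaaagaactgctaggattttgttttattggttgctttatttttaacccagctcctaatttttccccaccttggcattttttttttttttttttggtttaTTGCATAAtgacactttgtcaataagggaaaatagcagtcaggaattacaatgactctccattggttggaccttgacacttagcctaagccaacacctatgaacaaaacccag
C6: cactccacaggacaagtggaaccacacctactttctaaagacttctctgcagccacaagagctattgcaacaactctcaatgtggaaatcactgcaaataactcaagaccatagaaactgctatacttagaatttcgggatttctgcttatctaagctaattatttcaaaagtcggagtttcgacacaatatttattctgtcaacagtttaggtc
C1qb: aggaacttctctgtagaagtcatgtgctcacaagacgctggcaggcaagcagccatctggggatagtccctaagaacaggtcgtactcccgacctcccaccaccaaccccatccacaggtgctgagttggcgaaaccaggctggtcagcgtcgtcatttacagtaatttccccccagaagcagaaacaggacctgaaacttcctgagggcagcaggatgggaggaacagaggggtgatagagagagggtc
C1qc: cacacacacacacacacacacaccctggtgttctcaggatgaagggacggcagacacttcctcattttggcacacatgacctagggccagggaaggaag

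In the 250 bases upstream of the RefSeq start, on both strands, the letters GTTAAT (one arm of the site of HNF1, a hepatocyte transcription factor) occurred in 7 of the 24 promoters, 29.2%, against 6.43% of 32851 mouse promoters. The 7 were those of C1ra, Hc, C8a, C8b, Cfp, C4bp and Cr2, some of which are read mainly in hepatocyte-like cells and others in stellate-like, Kupffer-like or B-like cells. The match in C1ra lies inside the annotated gene, as do 216 of the 250 bases searched for it. Mbl1, Mbl2, Masp2, C3, C8g and C9, also read mainly in hepatocyte-like cells, did not hold the letters GTTAAT. In C8a these letters began 107 bases and in C8b 206 bases upstream of the start. C8a also held TTCNNNGAA (GAS, bound by STAT factors) 228 bases upstream, as Masp2 did 53 bases upstream, against 7.02% of all promoters. TTGCNNAA (C/EBP) was found in C9, 132 bases upstream, and in C3 and C1s1, against 9.56% of all promoters. The core of the interferon-stimulated response element was found in Cd59a alone, and the NF-kB site and CAAAGTCC (a nuclear receptor site) in none of the 24. The windows of C6, C1qb and C1qc held none of the motifs. The motif letters did not overlap one another in the sequences shown.

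Each gene had a main class of cells, and among the classes with 50 or more cells that class was the same in the 3 libraries for every gene but C1s1, C2 and the scarce Cfd. Kupffer-like cells held the highest levels of the C1q chains, Cfp, C6, C3ar1 and Vsig4, and hepatocyte-like cells those of Mbl1, Mbl2, Masp2, Cfb, C3, C4b, Hc, the C8 chains, C9, Cfi and C4bp. C1ra, Masp1 and Serping1 were highest in stellate-like cells, the membrane regulators Cd55 and Cd59a and the receptor Cd93 in endothelial-like cells, C5ar1 in neutrophil-like cells, Itgax in conventional dendritic-like cells and Cr2 in B-like cells. The protease gene C1s1 had 91.2 CPM in hepatocyte-like and 85.2 in stellate-like cells of the control, and 62.1 and 166 at day 21. C2 was 121 CPM in Kupffer-like and 76.0 in stellate-like cells of the control, and 104 and 137 at day 21. Of the 32 genes, 31 had at least 20 UMIs in every library. The remaining one, Cfd (factor D, made mainly in fat), had 0, 0 and 4 UMIs in all barcodes of control, day 4 and day 21, so no level could be compared.

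**Figure D1:**
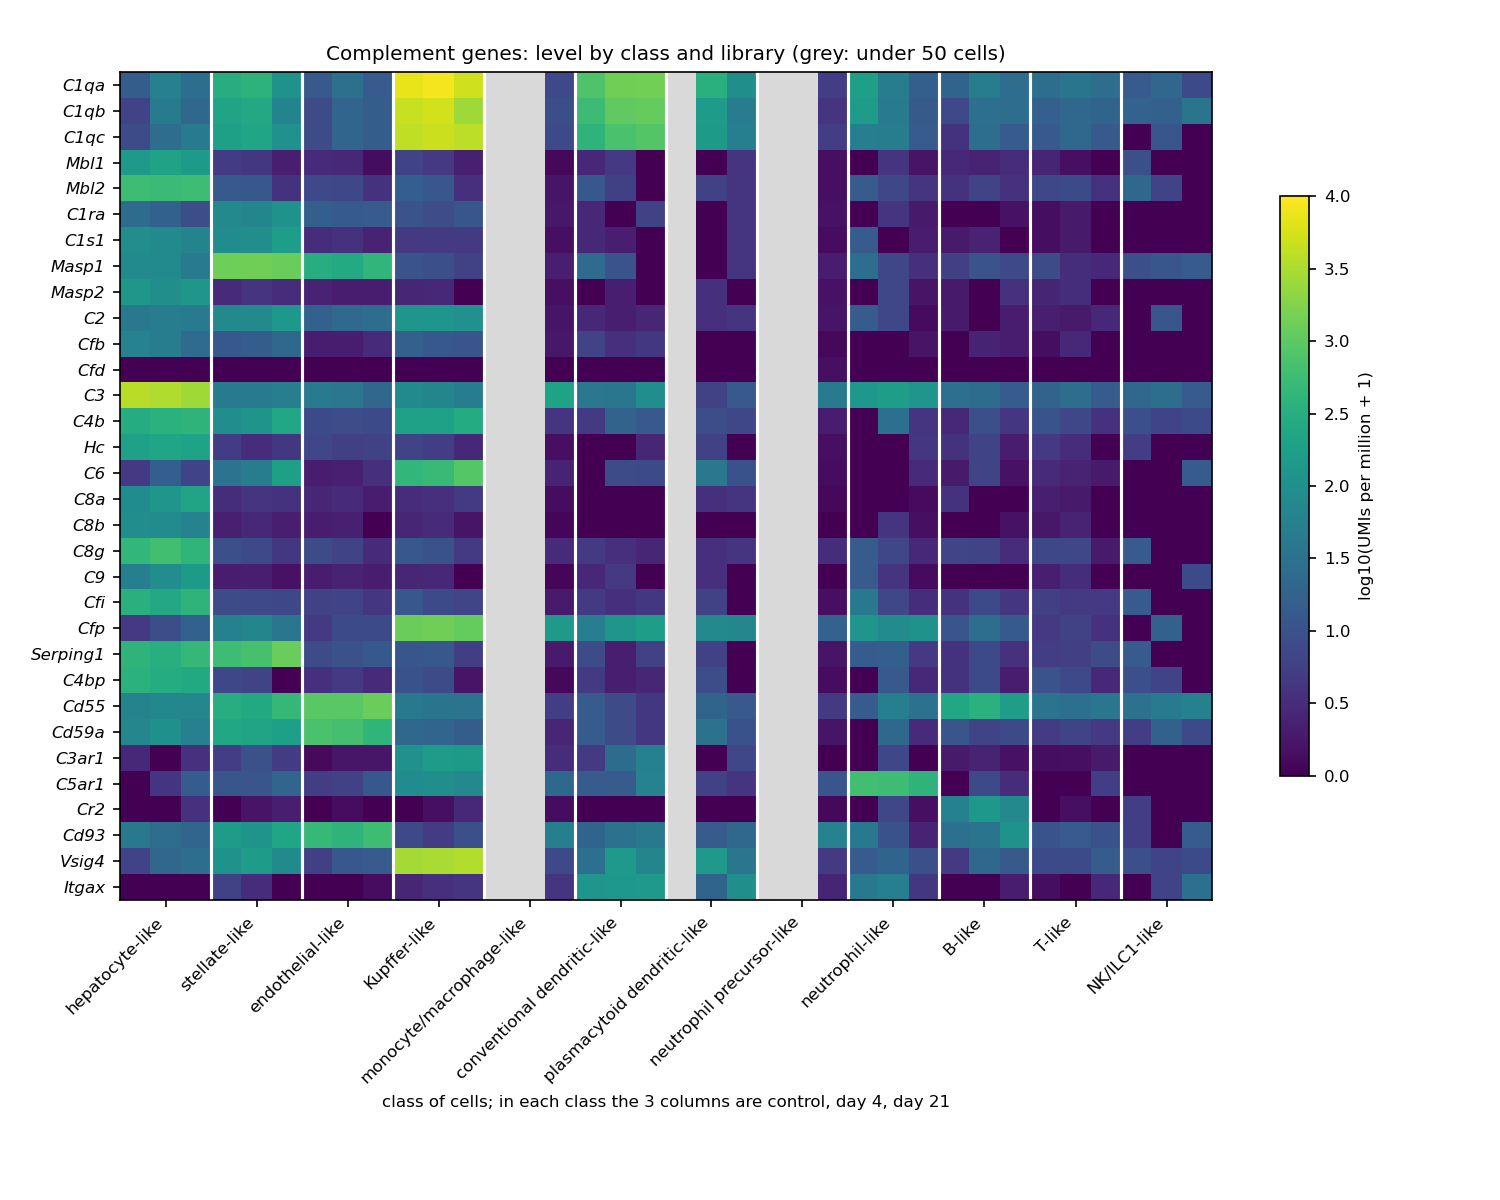
Level of each of the 32 genes, as log10 of CPM plus 1, in 12 classes of cells, with control, day 4 and day 21 side by side within a class and grey where a library had under 50 cells of it. The C1q chains, Cfp, C6 and Vsig4 stand out in Kupffer-like cells and the lectins, C3, the C8 chains and C9 in hepatocyte-like cells, in all 3 libraries.

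C1q is the recognition molecule of the classical pathway, built from A, B and C chains that are encoded by separate genes. In Kupffer-like cells the 3 chain genes were slightly higher at day 4 than in the control, and at day 21 the B chain was lower while the C chain was close to the control. C1qa measured 7408 CPM in control, 8439 at day 4 and 5052 at day 21. C1qb measured 4672, 5327 and 2673 CPM. C1qc measured 4214, 4729 and 4053 CPM. The day 4 log2 ratios to control were 0.19 (interval 0.17 to 0.21) for C1qa, 0.19 (0.16 to 0.22) for C1qb and 0.17 (0.14 to 0.19) for C1qc, so the chains differed by a like amount. At day 21 they parted, with log2 ratios to control of -0.55 (-0.59 to -0.52) for C1qa, -0.81 (-0.85 to -0.76) for C1qb and -0.06 (-0.10 to -0.01) for C1qc.

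The shares of the chains within the C1q UMIs of Kupffer-like cells show the same without reference to other genes. C1qb made up 28.7% of 58673 C1q UMIs in the control (Clopper-Pearson interval 28.3 to 29.0), 28.8% of 126835 at day 4 (28.6 to 29.1) and 22.7% of 18356 at day 21 (22.1 to 23.3). C1qc made up 25.9%, 25.6% and 34.4% (33.7 to 35.1 at day 21). C1qa made up 45.5%, 45.6% and 42.9%. The control and day 4 shares thus lay close together for each chain and the day 21 shares apart from both. Kupffer-like cells fell in a deep cluster (cluster 8, with 297, 567 and 34 cells in control, day 4 and day 21) and a shallow one (cluster 4, with 173, 353 and 634 cells). In cluster 4 alone C1qb was 4382, 5132 and 2498 CPM and C1qc 3900, 4592 and 4015 CPM, so C1qb had the same order as in the class, while C1qc at day 21 lay slightly above the control there and slightly below it in the class. The C1q UMIs found among stellate-like cells, where Kupffer markers were also read, had C1qb shares of 30.1%, 29.5% and 22.6% and C1qc shares of 26.1%, 25.5% and 37.2%, close to those of the Kupffer-like cells of the same library.

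**Figure D2:**
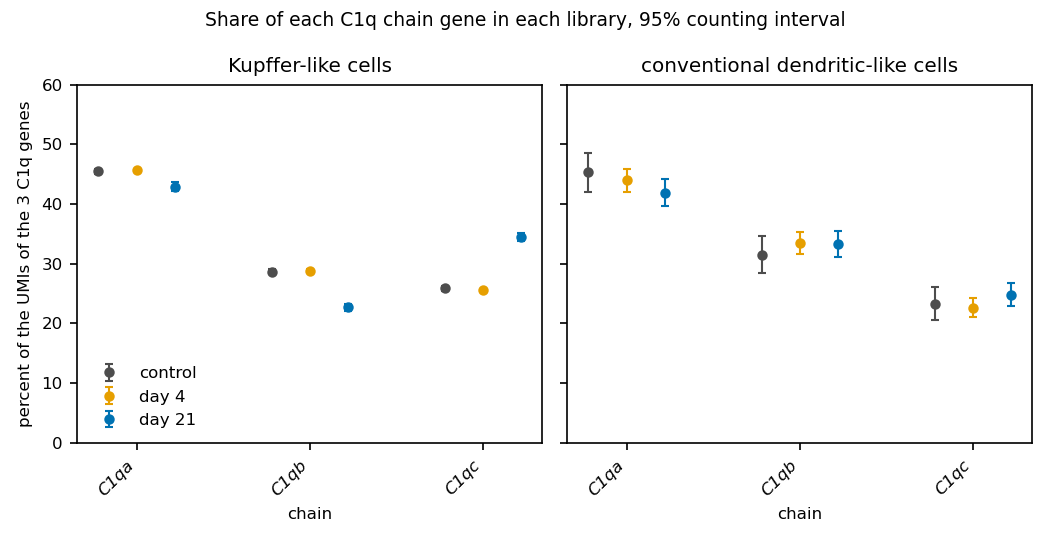
Percent of the UMIs of the 3 C1q genes that came from each chain, in Kupffer-like (left) and conventional dendritic-like cells (right), for control, day 4 and day 21. Points are shares and bars 95% Clopper-Pearson intervals, which cover counting error only. In Kupffer-like cells the day 21 points lie below the others for C1qb and above them for C1qc, whereas in conventional dendritic-like cells the intervals of the 3 libraries overlap for every chain.

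Among the other genes described in Kupffer-like cells, C6, a component of the lytic pore, differed most from the control at day 21. It measured 437 CPM in control (1573 UMIs), 501 at day 4 (3433 UMIs) and 871 at day 21 (1358 UMIs). The day 21 level was 1.99-fold that of the control (log2 interval 0.89 to 1.10), and the log2 ratio lay between 0.80 and 1.78 under the alternatives of processing. In the shallow cluster 4 alone, C6 was 258, 456 and 886 CPM, so there the day 4 cells also stood above the control. C4b, which continues the classical and lectin pathways after C1 or MASP cleavage, measured 192, 193 and 286 CPM, a day 21 log2 ratio of 0.58 (0.40 to 0.75). Reads of C4b may include its near-identical copy C4a, which has no row of its own in the tables.

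In Kupffer-like cells the receptor genes C3ar1 and Vsig4 were level with the control or above it, whereas C5ar1 measured less at day 21. C3ar1, the receptor of the C3a fragment, measured 103 CPM in control, 153 at day 4 and 150 at day 21, log2 ratios of 0.57 (0.40 to 0.74) and 0.53 (0.29 to 0.77). In cluster 4 alone C3ar1 was 60.2, 80.5 and 149 CPM. Vsig4 measured 2883, 3057 and 3460 CPM, with log2 ratios of 0.08 and 0.26. C5ar1, the receptor of C5a, was low in these cells at 86.9, 98.6 and 74.4 CPM. Cfp (properdin, which stabilises the alternative pathway convertase) measured 1244, 1349 and 1145 CPM, and the proteases C2 121, 124 and 104 CPM and Cfb 15.6, 11.7 and 10.3 CPM.

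**Figure D3:**
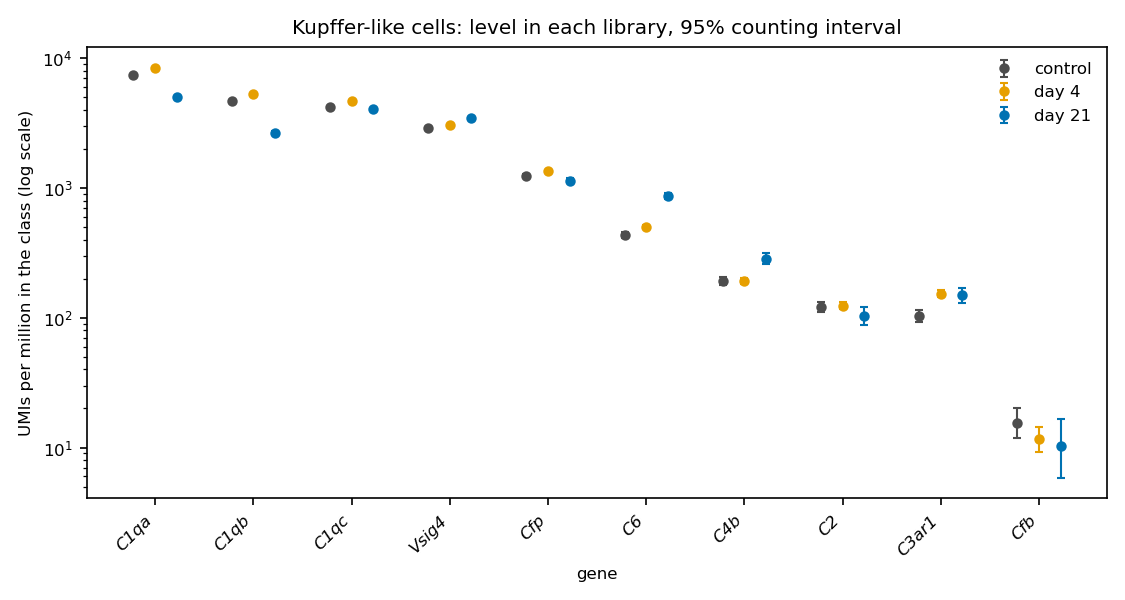
Level of 10 complement genes in Kupffer-like cells of the control, day 4 and day 21 libraries, in CPM on a log scale, with 95% Poisson intervals that cover counting error only. At day 21 C1qa and C1qb lie below and C6 and C4b above the other libraries, while C1qc, Vsig4, Cfp and C2 lie close together.

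At day 4, 0 of the 28 genes measured in Kupffer-like cells were at least 2-fold above or below the control, against 1.78% and 2.43% of all genes measured there. At day 21, 0 of 24 were at least 2-fold higher, against 6.0% of all genes, and 6 of 24 were at least 2-fold lower, against 6.01%. The 6 were Mbl1, Mbl2, Hc, C8g, Serping1 and C4bp, none of which is described in these cells: C4bp had 33 UMIs in control and 1 at day 21, and Mbl2 53 and 4. All 12 hepatocyte markers were read in Kupffer-like cells, at 2161, 1588 and 588 CPM in control, day 4 and day 21, and once UMIs were subtracted in proportion to them, 0 genes were 2-fold lower and 1 was 2-fold higher. That subtraction takes the RNA read there to have the make-up of the hepatocyte-like class, which was not tested. A gene left by it with fewer UMIs than the limit for a ratio also dropped out of those counts. How many genes were still measured is not given, so the 0 does not show whether the 6 genes were still lower. Without the subtraction, the median log2 ratio of the measured genes was 0.02 at day 4 and -0.55 at day 21, against 0.01 and 0.09 for all genes.

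The cluster of conventional dendritic-like cells (72, 115 and 140 cells) also held C1q UMIs. C1qa measured 780, 1375 and 1413 CPM, C1qb 542, 1047 and 1123 CPM and C1qc 401, 707 and 838 CPM in control, day 4 and day 21. Few cells carried them. The 7, 12 and 14 cells with most C1q UMIs, 10% of the class in each library, held 71.6%, 71.7% and 65.2% of the C1q UMIs, and the median cell had 0. In Kupffer-like cells the top 10% held 25.2%, 24.2% and 30.3%, and the median cell had 105, 121 and 21 C1q UMIs. The C1q-rich cells of the dendritic-like cluster had conventional dendritic markers at 93.8, 116 and 105 CPM, against 2309, 2515 and 1601 CPM in the whole cluster. Their Kupffer markers measured 500, 2898 and 1664 CPM, against 118, 412 and 354 CPM in the whole cluster. In the top 10% of Kupffer-like cells those markers measured 19048, 20900 and 20909 CPM. The C1q-rich cells thus lay far below C1q-rich Kupffer-like cells in Kupffer markers. Against the whole dendritic-like cluster they were higher in Kupffer and lower in dendritic markers. Within this class C1qb made up 31.4%, 33.5% and 33.3% and C1qc 23.3%, 22.6% and 24.8% of C1q, so the day 21 shares differed from those of Kupffer-like cells of the same library.

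Of the 10 genes measured in the dendritic-like class, 8 were at least 2-fold higher at day 21 than in the control, against 12.0% of all genes measured there. The 8 were C1qb, C1qc, C3, Cfp, C3ar1, C5ar1, Cd93 and Vsig4, of which C1qb and C3ar1 are described in the class, both only through their day 21 level. Markers of other cells differed in the class too: the 12 neutrophil markers measured 837, 28.9 and 3972 CPM and the 9 Kupffer markers 118, 412 and 354 CPM in control, day 4 and day 21, and their part in these ratios was not tested. C3ar1 had 2, 21 and 33 UMIs, or 3.75, 25.3 and 56.7 CPM, and its day 21 log2 ratio to control was 3.62 with a wide interval (1.95 to 7.02). C5ar1 had 7, 11 and 34 UMIs (13.1, 13.3 and 58.4 CPM), and Cfp had 27, 106 and 98 UMIs (50.6, 128 and 168 CPM). Itgax, the CD11c chain of complement receptor 4 and a usual marker of dendritic cells, was level at 124, 136 and 146 CPM. The day 21 log2 ratio of C1qb was 1.05, but it was -0.37 with cells thinned to 1000 UMIs and -0.010 as a mean over cells. In plasmacytoid dendritic-like cells Itgax measured 18.4 CPM at day 4 (7 UMIs) and 97.6 at day 21 (32 UMIs). The log2 ratio was 2.33, where 5.92% of all genes were at least 2-fold higher. Itgax is described in that class only through its day 21 level, a choice that fixed part of this ratio.

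Hepatocytes supply most of complement in plasma, and the hepatocyte-like cells left in the preparation held the widest set of the genes. The lectins were similar in the 3 libraries: Mbl2 measured 574, 539 and 572 CPM and Mbl1 141, 201 and 148 CPM in control, day 4 and day 21. C3, the central component, was the highest gene of the list in this class at 3659, 3364 and 2644 CPM, with day 4 and day 21 log2 ratios of -0.12 (-0.20 to -0.04) and -0.47 (-0.58 to -0.36). C4b measured 302, 356 and 394 CPM and Hc 197, 220 and 208 CPM. Of the proteases, Masp2 measured 131, 94 and 130 CPM, and Cfb 59.0, 47.5 and 24.3 CPM, the last from 9 UMIs, with a day 21 log2 ratio of -1.23 (-2.53 to -0.19).

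The pore components of hepatocyte-like cells did not differ together. C8a, the alpha chain of C8, measured 85.8 CPM in control (48 UMIs), 130 at day 4 (126 UMIs) and 219 at day 21 (81 UMIs). C9, which polymerises into the pore, measured 51.9 CPM (29 UMIs), 91.9 (89 UMIs) and 151 (56 UMIs). Both were thus higher at day 4 and higher again at day 21, with log2 ratios to control of 0.59 (0.11 to 1.11) and 1.34 (0.82 to 1.89) for C8a and 0.81 (0.21 to 1.48) and 1.53 (0.87 to 2.24) for C9. C8b, the neighbour of C8a in the genome and its partner in the C8 complex, measured 91.2, 83.7 and 59.3 CPM, with log2 ratios of -0.13 (-0.65 to 0.41) and -0.60 (-1.41 to 0.13). C8g, the third chain, measured 440, 614 and 410 CPM. The intervals of C8a and C8b at day 21 did not overlap. Over the alternatives that gave a value, the day 21 ratio to control lay between 1.11 and 1.34 for C8a and between 1.28 and 3.24 for C9. The step from day 4 to day 21 was less stable for C8a. Its log2 ratio was 0.75 and ranged from -0.22 to 0.75, with the same sign in 8 of 9 values. That of C9 was 0.72 and ranged from 0.58 to 0.77. The median log2 ratio of all genes in this class was 0.18 at day 21, and with that shift removed C8a stood at 1.16 and C9 at 1.35.

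The 3 soluble regulators described in hepatocyte-like cells were less than 2-fold apart between the libraries. Cfi, the protease that inactivates C3b and C4b, measured 340, 260 and 399 CPM, and its cofactor C4bp 352, 295 and 272 CPM. Serping1, the C1 inhibitor, measured 397, 326 and 459 CPM. Between day 21 and day 4 the log2 ratio was 0.62 (0.31 to 0.92) for Cfi and 0.49 (0.21 to 0.76) for Serping1. At day 4, 4 of 25 measured genes were at least 2-fold higher (4.58% of all genes) and 0 lower (3.86%). The 4 were C1qa, C1qb, C1qc and Vsig4, which had 8, 3, 4 and 3 UMIs in the control and 53, 44, 25 and 19 at day 4, and are not described in these cells. At day 21, 3 of 21 were at least 2-fold higher (11.2% of all genes) and 2 lower (7.06%): C8a, C9 and C1qc (4 and 16 UMIs), and Cfb and Cd93 (23 and 7 UMIs). The median log2 ratio of the measured genes was 0.16 at day 4 and -0.00 at day 21. Depth was low in this class, with medians of 1589, 1249 and 960 UMIs per cell, and 559195, 968076 and 370698 UMIs in all. Neutrophil markers in it measured 91.2, 208 and 6863 CPM. Kupffer markers measured 120, 181 and 143 CPM, and 4 of the 9 (Timd4, Marco, Cd163 and Fabp7) were at 0 in the control.

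**Figure D4:**
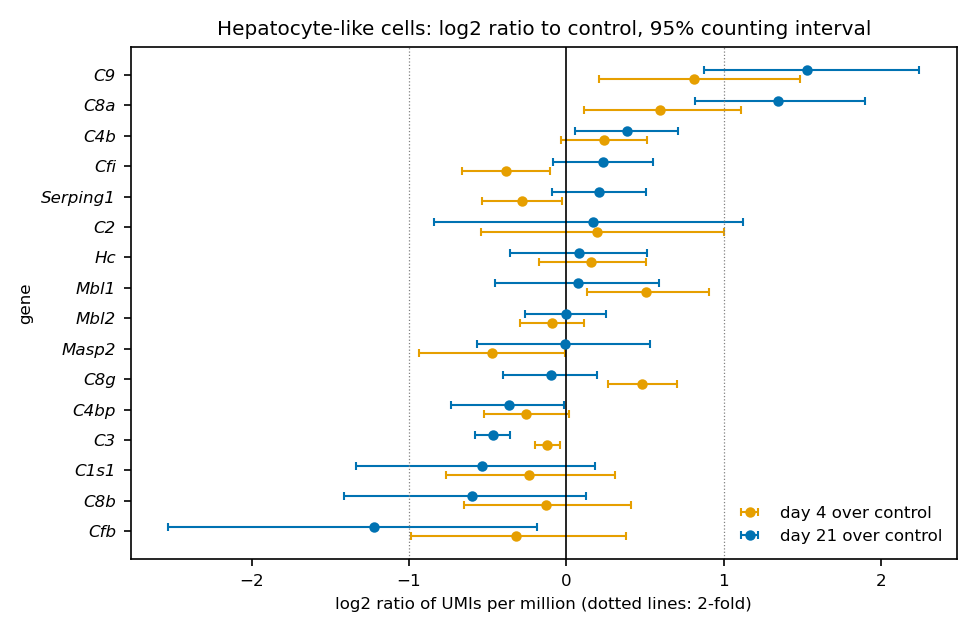
Log2 ratio to control at day 4 and day 21 of the complement genes described in hepatocyte-like cells, sorted by the day 21 value, with exact 95% intervals that cover counting error only. C9 and C8a lie highest at day 21, at 1.53 and 1.34, and the intervals of most others include 0.

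Stellate cells, the pericytes of the liver sinusoid, held early components and the C1 inhibitor. Serping1 measured 573, 677 and 1204 CPM in control, day 4 and day 21 (2750, 3392 and 2115 UMIs), with log2 ratios of 0.24 (0.17 to 0.32) at day 4 and 1.07 (0.99 to 1.15) at day 21. C4b measured 90.8, 117 and 240 CPM, with log2 ratios of 0.37 (0.19 to 0.55) and 1.40 (1.20 to 1.60). The proteases C1s1 (85.2, 97.0 and 166 CPM), C2 (76.0, 75.1 and 137 CPM), C1ra (76.0, 68.1 and 114 CPM) and Cfb (11.5, 14.2 and 20.5 CPM) were also higher at day 21, with log2 ratios to control of 0.96, 0.85, 0.59 and 0.85. Masp1, whose level in this class was the highest of any class, was level at 1295, 1374 and 1226 CPM, a day 21 log2 ratio of -0.08 (-0.15 to -0.01). Serping1, C4b and these 4 proteases were thus higher at day 21, and the lectin pathway protease Masp1 was not. Within cluster 13 of these cells alone, described next, the day 21 log2 ratio of Masp1 was instead 0.89. The near-identical copies C1rb and C1s2 were counted apart from C1ra and C1s1, and the sources do not say how reads common to a pair were assigned.

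Different clusters held most stellate-like cells in the libraries: cluster 9 had 369, 448 and 4 cells in control, day 4 and day 21, and cluster 13 had 150, 214 and 337. Cluster 13 was of mixed make-up. Its stellate markers together measured 12284 and 11527 CPM in control and day 4 but 26700 at day 21, and its Kupffer markers 2908, 3848 and 626 CPM. The comparison was therefore repeated with cluster 13 at day 21 against cluster 9, an alternative chosen after the data were seen. Serping1 was 655 and 808 CPM in cluster 9 of control and day 4 and 1201 in cluster 13 at day 21, a log2 ratio to control of 0.88. C4b was 96.0, 137 and 233 CPM (1.28), C1s1 96.8, 113 and 166 CPM (0.78), C2 83.8, 81.3 and 137 CPM (0.71) and Masp1 1453, 1590 and 1224 CPM (-0.25). The order of the libraries was thus the same for Serping1, C4b, C1s1 and C2, with smaller ratios than in the whole class for each, and Serping1 was then under 2-fold.

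C6 was read in stellate-like cells too, at 32.1, 48.3 and 184 CPM (154, 242 and 323 UMIs), below 25% of its level in Kupffer-like cells. At the ratio of C6 to Kupffer markers in Kupffer-like cells, the Kupffer markers read in the stellate-like class would bring 58.5%, 55.8% and 14.6% of those UMIs, which leaves 13.3, 21.4 and 157 CPM. C6 in cluster 9 was 17.7 and 29.1 CPM in control and day 4, and in cluster 13 it was 89.7, 112 and 184 CPM. The Cd55, Cd59a and Cd93 UMIs of the stellate-like class were at or below what its endothelial markers (9656, 9069 and 11338 CPM) would bring at the endothelial ratio, which was between 106% and 126% of the UMIs read. The same held for C1qa and the Kupffer markers, at 102%, 117% and 140%. These shares take the RNA of the other class to be read here in that class's own proportions, and whether it was the source of the UMIs was not tested.

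**Figure D5:**
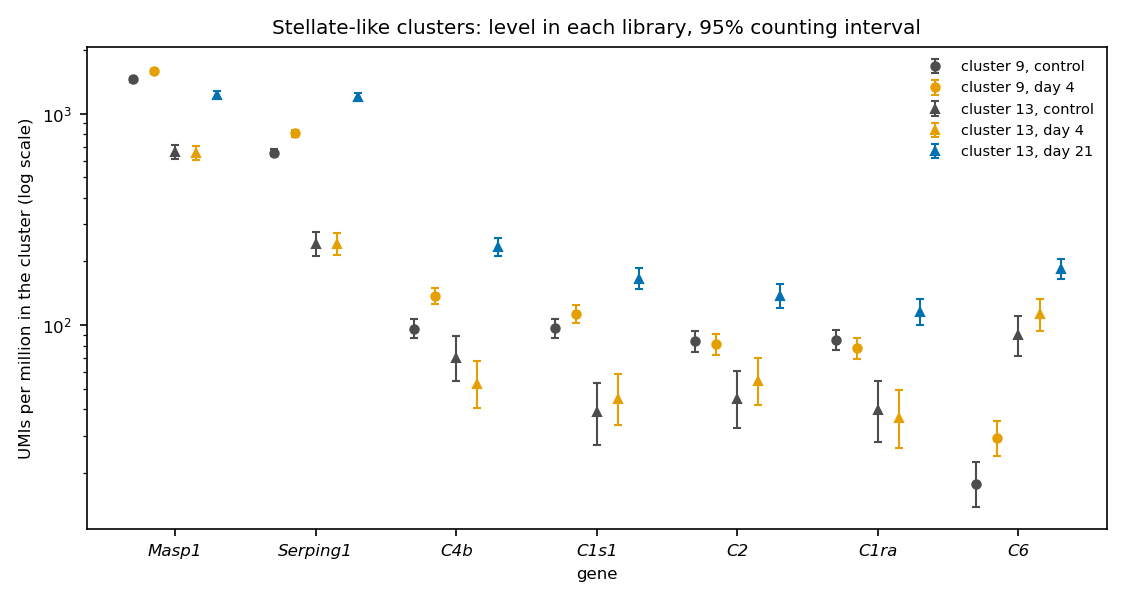
Level of 7 complement genes in the clusters of stellate-like cells with 50 or more cells in a library (circles, cluster 9; triangles, cluster 13), in CPM on a log scale with 95% Poisson intervals that cover counting error only. Cluster 13 at day 21 lies above both clusters of the other libraries for every gene shown but Masp1.

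At day 4, 1 of the 28 genes measured in stellate-like cells was at least 2-fold higher (C3ar1, 21 and 45 UMIs) and 1 lower (Itgax, 24 and 12 UMIs), against 1.29% and 1.8% of all genes. At day 21, 3 of 26 were at least 2-fold higher, against 5.86% of all genes, and 7 lower, against 5.09%. The higher ones were C4b, Serping1 and C6, and the lower ones C1qa, C1qb, Mbl1, Mbl2, C8g, C4bp and Itgax, all of which are read mainly in other classes. The 12 hepatocyte markers measured 1790, 1360 and 735 CPM in the stellate-like class and the 9 Kupffer markers 744, 1041 and 621 CPM, and their part in these counts was not tested. The median log2 ratio of measured genes was 0.06 at day 4 and -0.14 at day 21, but at day 21 it was 0.71 with a mitochondrial limit of 10% and 0.72 for cluster 13 against cluster 9.

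Endothelial-like cells carried the membrane regulators, which protect host cells from complement. Cd55 (decay-accelerating factor, which breaks up C3 convertases) measured 932, 934 and 1233 CPM in control, day 4 and day 21, with a day 21 log2 ratio of 0.40 (0.35 to 0.46). Cd59a, which blocks pore assembly, measured 707, 665 and 413 CPM, with a day 21 log2 ratio of -0.78 (-0.87 to -0.69) and a range of -0.87 to -0.63 over the alternatives. The regulators thus differed in opposite directions at day 21. Cd93, a membrane protein once described as a C1q receptor, measured 483, 399 and 580 CPM, log2 ratios of -0.28 (-0.34 to -0.21) and 0.26 (0.18 to 0.35). Masp1 measured 311, 282 and 427 CPM, of which stellate markers would bring between 4.54% and 5.73%. That share takes stellate RNA to be read here in the proportions of the stellate-like class, and the source of the UMIs was not tested.

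Here too the clusters differed between libraries: cluster 0 held 1076, 1280 and 48 cells, cluster 5 held 10, 13 and 950, cluster 18 held 202, 182 and 7 and cluster 21 held 103, 61 and 54. Cluster 21, led by Vwf and Edn1, was the one with 50 or more cells in each library. There Cd55 was 749, 688 and 1012 CPM and Cd59a 929, 723 and 559 CPM, the same directions as in the class. Masp1 differed, at 150, 122 and 106 CPM in cluster 21, where the class as a whole was higher at day 21. Cluster 18, led by Wnt2 and Wnt9b, had Masp1 at 446 and 391 CPM and Cd93 at 648 and 535 CPM in control and day 4, above cluster 0 (301 and 274, and 457 and 379 CPM). At day 4, 4 of 25 measured genes were at least 2-fold higher in endothelial-like cells (1.37% of all genes) and 0 lower (1.49%), the 4 being C1qa, C1qb, C1qc and Vsig4. The 9 Kupffer markers measured 253, 292 and 301 CPM in these cells in control, day 4 and day 21, and their part in those counts was not tested. At day 21, 2 of 21 were higher (C5ar1 and Vsig4, against 7.69%) and 3 lower (Mbl2, C3 and C8g, against 5.0%), none of them described in this class. The 12 hepatocyte markers measured 1126, 904 and 389 CPM in it, and their part was not tested. The median log2 ratio of measured genes was 0.17 at day 4 and 0.13 at day 21.

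C5ar1, the receptor through which C5a attracts granulocytes, was highest in neutrophil-like cells at 622, 570 and 394 CPM (47, 186 and 2568 UMIs) in control, day 4 and day 21. The day 21 library held several granulocytic clusters, whose order of maturation was not computed, and C5ar1 differed between them. It was 10.4 CPM in the precursor-like cluster 12 (Elane, Mpo), 160 in the unnamed cluster 16 (Fcnb, Camp), 250 in the unnamed cluster 11 (Ltf, Ly6g), 350 in the neutrophil-like cluster 3 and 510 in the neutrophil-like cluster 2. The last is the cluster that held the neutrophil-like cells of the other libraries, at 622 CPM in control and 597 at day 4. In the same clusters, listed in that order, C3 was 41.5, 257, 219, 130 and 105 CPM. It was 340 and 159 CPM in the monocyte/macrophage-like clusters 14 and 15. Hepatocyte markers would bring 7.02% of the C3 UMIs of neutrophil-like cells at day 21, against 53.8% in the control. These shares take hepatocyte RNA to be read there in the proportions of the hepatocyte-like class, and the source of the UMIs was not tested. Cfp was 17, 32.7, 77.5, 118 and 103 CPM in the granulocytic clusters as listed, and 146 and 141 CPM in the monocyte/macrophage-like ones. Itgax in neutrophil-like cells was 39.7, 52.1 and 3.52 CPM from 3, 17 and 23 UMIs. Its day 21 log2 ratio to control was -3.69 (-5.22 to -1.12), where 52.2% of all genes measured in that class were at least 2-fold lower. For that ratio Itgax is described in the class only through its control level, a choice that fixed part of the ratio.

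Cr2, the receptor for C3d that lowers the threshold of B cell activation, was read mainly in B-like cells, which held 96.7%, 88.2% and 88.1% of its UMIs in control, day 4 and day 21. It measured 55.6, 135 and 76.7 CPM (58, 97 and 140 UMIs). The log2 ratio at day 4 was 1.27 (0.80 to 1.77), and 5 of the 8 genes measured in these cells were at least 2-fold higher, against 3.88% of all genes. The other 4 were C1qa, C1qb, C1qc and Cfp, which are not described in B-like cells. Kupffer markers measured 36.4, 106 and 81.0 CPM and neutrophil markers 9.59, 828 and 2096 CPM in these cells, and their part was not tested. At day 21, 303 of the 719 B-like cells belonged to cluster 20, which held 2 cells of the control and 1 of day 4 and in which Cr2 had 2 UMIs (1.82 CPM). In the shared B-like cluster 6, Cr2 was 55.9, 135 and 190 CPM. Cd55 followed the same split, at 240, 354 and 357 CPM in cluster 6 and 39.9 in cluster 20, whereas Cd93 was 26.0, 33.5 and 31.7 CPM in cluster 6 and 162 in cluster 20. Cd93 was also read in the precursor-like cluster 12 (58.8 CPM) and the monocyte/macrophage-like cluster 14 (83.8 CPM), and was between 0.58 and 2.07 CPM in the granulocytic clusters 3, 11 and 16.

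Beside the 32 genes, 29 other complement genes had a row. In hepatocyte-like cells at day 21, 1 of the 13 measured was at least 2-fold higher (11.2% of all genes) and 0 lower (7.06%). Apcs (serum amyloid P) measured 342, 355 and 615 CPM, a day 21 log2 ratio of 0.85, and Crp 198, 136 and 119 CPM, a ratio of -0.73. In stellate-like cells 2 of 22 were at least 2-fold higher (5.86% of all genes) and 4 lower (5.09%) at day 21. There Colec10 measured 571, 670 and 1098 CPM and its lectin partner Colec11 2184, 2390 and 1553 CPM, so the collectins differed in opposite directions. Kupffer-like cells at day 21 had 1 of 16 at least 2-fold higher (Itgam, 66 and 73 UMIs, against 6.0% of all genes) and 6 lower (6.01%), and Fcna, a ficolin of macrophages, was level at 2041, 2073 and 2134 CPM. Endothelial-like cells had 3 of 20 at least 2-fold higher (7.69% of all genes) and 6 lower (5.0%), and the C5a receptor gene C5ar2 measured 41.4, 46.0 and 88.4 CPM in them. In hepatocyte-like cells the lowest ratio of the list at day 21 was that of Colec12 (-0.99), and the 2 highest were those of Apcs and C1qbp (1.53). The 2 lowest and 2 highest ratios at day 21 were those of C1rb (-3.18), Vtn (-2.25), C1qbp (0.38) and Itgam (1.35) in Kupffer-like cells. They were those of Susd4 (-2.99), Crp (-2.46), C5ar2 (1.68) and Itgam (1.88) in stellate-like and Crp (-4.02), Cpn1 (-2.16), Clu (1.13) and Itgb2 (3.50) in endothelial-like cells. Neutrophil markers measured 436 CPM in control and 5223 at day 21 in stellate-like cells, and 54.4 and 3017 CPM in endothelial-like cells. Hepatocyte markers measured 2161 and 588 CPM in Kupffer-like, 1790 and 735 in stellate-like and 1126 and 389 in endothelial-like cells. The part of these markers in the counts and ratios of the list was not tested.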

How the data were processed

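The deposited files hold raw UMI counts per gene and barcode, which the authors made with Cell Ranger (version 3.1.0 per the file headers) and for which the submitters' processing notes name mm10. A minimum of 200 detected genes and a mitochondrial share of no more than 20% were required of each barcode, and predicted doublets were removed (Scrublet in Scanpy 1.11.5), which were 0.845%, 1.80% and 6.86% of the cells of control, day 4 and day 21. The 32 genes and the 29 related ones with a row were kept out of the 2000 variable genes, and 30 principal components, 15 neighbours and Leiden resolution 1 gave the clusters. A cluster was named from 21 marker lists when at least 3 markers of a list were detected, and stayed unnamed when its leading genes or depth went against the name. Counts were summed per class and library. Log2 ratios had 0.5 UMI added to each sum, with exact conditional binomial intervals, and a fold of 2 was the size used for counts of genes. The intervals were checked on data simulated under the counting model that they assume. That check cannot show how they hold under variation between cells or libraries. No test across libraries was possible with 1 library per group, and no p-value is given. Gene positions are those of GENCODE M21, in which 30934 of 31053 identifiers and all 32 genes were found. Genes named beside the 32 were the 2 highest and 2 lowest of the related list per class, and those described in a class by level; 1 of them is not reported here. The genes, lists and comparisons were chosen with earlier results of these data known. Alternatives were 11 planned settings and others, named as such, that were added after the data were seen.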

Additional observations from a re-analysis of the deposited data

Results flagged for a closer look

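Some values stood out in classes that the comparisons above leave out because a library held under 50 cells of them. In cholangiocyte-like cells (19, 22 and 22 cells in control, day 4 and day 21) the day 21 level of C3 was above the control by a log2 ratio of 2.67, that of C4b by 1.54 and that of C4bp by 1.73. C3 had 59, 44 and 198 UMIs there, and 1 cell held 168 of the 198 at day 21, or 84.8%. In plasmacytoid dendritic-like cells (42, 57 and 90 cells) Itgax was above the control at day 21 by a log2 ratio of 2.71, from 4 and 32 UMIs. None of these differences has a replicate check.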

How the results depend on the processing

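No paired analysis was possible because each group was 1 library. Over the 142 ratios of described genes, 1374 of 1480 values under alternatives kept the sign. For the 14 of these ratios that were at least 2-fold, 136 of 139 values kept the direction and 118 were at least 2-fold, but 7 of the 14 belonged to genes described in only 1 of the 2 libraries compared, so that this choice fixed part of their size and direction. The 3 values that turned were C1qb in conventional dendritic-like cells, day 21 over control, which was -0.37 with cells thinned to 1000 UMIs and -0.010 as a mean over cells, and Cd55 in B-like cells, day 21 over day 4, which was 0.012 in cluster 6 alone. The median ratio of the measured genes was set against a span from the median lower to the median upper limit of the single genes' intervals. That span is wide and is not an interval of the median. The median ratio lay outside it under 3 alternatives. In endothelial-like cells at day 21 it was 0.13 as reported and -0.47 in cluster 21 alone (5 genes). In stellate-like cells at day 21 it was -0.14 as reported, 0.71 with a mitochondrial limit of 10% and 0.72 for cluster 13 against cluster 9. The cause was not tested. Over all alternatives this median ranged from -0.17 to 0.11 at day 4 and -0.64 to -0.14 at day 21 in Kupffer-like, -0.12 to 0.37 and -0.47 to 0.38 in endothelial-like, -0.07 to 0.21 and -0.19 to 0.40 in hepatocyte-like, and -0.11 to 0.24 and -0.37 to 0.72 in stellate-like cells. Counts of genes at least 2-fold higher and lower at day 21 ranged from 0 to 2 and 0 to 9 in Kupffer-like cells, from 0 to 6 and 1 to 7 in endothelial-like, from 0 to 6 and 0 to 5 in hepatocyte-like, and from 2 to 8 and 0 to 8 in stellate-like cells. At day 4 they ranged from 0 to 1 and 0 to 1, 0 to 5 and 0 to 1, 0 to 5 and 0 to 2, and 0 to 1 and 0 to 1 in the same order. Hepatocyte-like cells gave no value with doublets kept, with the 10% mitochondrial limit or at Leiden resolution 2, where under 50 control cells bore the name. Alternatives limited to single clusters were added after the data were seen. With 1 library per group, differences between animals, preparations and conditions cannot be told apart.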
